A study of Homo sapiens with 6 samples.

Results

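Translation initiation factors are the proteins that bring the small ribosomal subunit, the initiator tRNA and the mRNA together. The genes taken as initiation factors here were all those in the expression table whose symbol begins with EIF, 56 of 20030 genes, and each was placed in a factor by its symbol. The symbols fall into EIF1 with 5 genes, EIF2 with 6, the EIF2 kinases with 4, EIF2B with 5, EIF3 with 14, EIF4 with 16, EIF5 with 5 and EIF6 with 1. Of the 56 genes, 52 reached an average level of 1 FPKM and were tested among 10439 genes.

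The libraries came from 786-O cells, an established line derived from a human clear cell renal cell carcinoma, at passages 16 to 18. All 6 libraries carried a stable short hairpin RNA (shRNA): in the vector group (3 libraries, 786-O-sh-vector) it was scrambled, and in the shYB1 group (3 libraries, 786-O-sh-YB1) it was directed against YB1, the Y-box protein encoded by YBX1. The design notes of the series speak of several independent hairpins, whereas the labels give a single shYB1 group, so the hairpin in each library and its own contribution cannot be told apart. The sources used here do not say whether the 3 libraries of a group came from separate cultures or whether the knockdown cells were 1 clone, so every p-value measures only the spread between these libraries.

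The values were FPKM, a level in which the fragments of a gene are divided by its transcript length and by the size of the library. No counts were analysed here, and the depth of each library is unknown. The FPKM of a library summed to between 282736 and 295887. YBX1 itself had 366.5, 372.8 and 377.9 FPKM in vector and 166.7, 165.9 and 173.3 FPKM in shYB1, with a log2 fold change of -1.14 ± 0.03 (SE, limma adjusted p = 1.5e-08). The renal lineage factor PAX8 ranged from 75.6 to 78.7 FPKM over the 6 libraries and VIM from 1366 to 1450 FPKM. The leukocyte gene PTPRC reached at most 0.016 FPKM, and CD3E, CDH5 and HBB were listed at 0 in all libraries.

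In the known order of initiation, EIF1, EIF1A, EIF3, EIF5 and the EIF2 complex with GTP and initiator tRNA assemble on the small subunit, while EIF4E, EIF4G and the helicase EIF4A bind the capped end of the mRNA and load the subunit for scanning. After start codon recognition EIF5 triggers GTP hydrolysis on EIF2, EIF5B joins the large subunit, and EIF2B recharges EIF2 with GTP unless EIF2 has been phosphorylated by one of its kinases. YB1 is known as an abundant mRNA-packaging protein that can displace the cap-binding factors from mRNA, and it binds the inverted CCAAT (Y-box) element of promoters.

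More initiation factor mRNAs rose than fell after YB1 knockdown, and the changes were small. Of the 52 tested genes, 21 rose and 4 fell in shYB1 against vector (limma, Benjamini-Hochberg adjusted p under 0.05), and 27 did not pass. The 21 that rose were 40.4% of the tested initiation factors, beside 18.7% of all genes tested, and the 4 that fell were 7.69%, beside 6.93%. In either direction 25.7% of all genes tested passed. That share depends on level: it was 35.5% when only genes averaging at least 5 FPKM were tested. With that filter 46.5% of the 43 initiation factors left rose, beside 26% of all genes. Those that fell were 9.3%, beside 9.53%. The called initiation factors rose by between 8.48% (EIF3K) and 30.01% (EIF6) in mean FPKM, and 0 of the 52 changed by a factor of 2 or more. The median log2 fold change was 0.09 over the 52 genes and 0.06 over all genes tested. The 3 shYB1 libraries all lay above the 3 vector libraries in 29 of the 52 genes, beside 30.1% of all genes tested, and all below them in 7, beside 12.5%. In all 25 called genes the groups were apart, but the call rests on the same 6 values. The share over all called genes was not counted.

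The share of higher calls depended on how the libraries were scaled. As deposited, 84% of the called initiation factors and 73% of all called genes were higher. After median-of-ratios rescaling, which sets the typical gene to no change, 16 initiation factors were higher, beside 11.4% of all genes, and 8 were lower, beside 12% of all genes. The higher share was then 66.7% among the initiation factors and 48.8% among all genes. Of the 25 genes called as deposited, 20 had the same call after rescaling, and 4 genes that had not passed, EIF3D, EIF3F, EIF3H and EIF4A2, were called lower after it. EIF3H also passed in other alternatives, such as rescaling to a common total (limma adjusted p = 0.014) and quantile normalization (0.047).

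**Figure D1:**
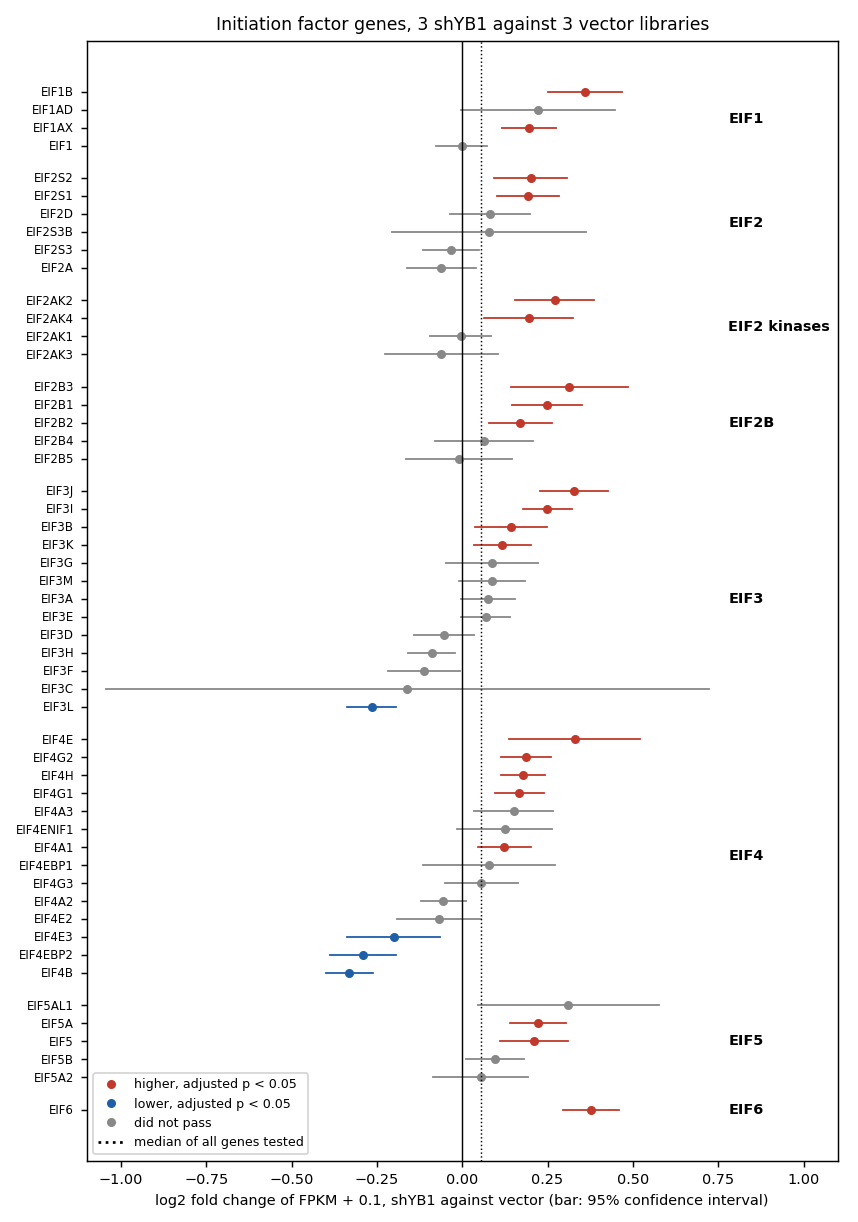
Log2 fold change of FPKM + 0.1 in shYB1 against vector (x axis) for each of the 52 tested initiation factor genes (y axis), grouped by factor. Points are limma estimates from 3 libraries a group with their 95% confidence intervals, red for the 21 genes called higher, blue for the 4 called lower and grey for the 27 that did not pass, and the dotted line is the median of all genes tested, 0.06.

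Initiation factor mRNAs were abundant in both groups. The median of the mean levels was 22.8 FPKM over the 52 genes and 7.30 FPKM over all genes tested. EIF1, which keeps the scanning ribosome open until a start codon is found, was the most abundant at a mean of 227.6 FPKM, followed by the EIF3 subunit EIF3H at 192.7 FPKM and the helicase EIF4A1 at 183.9 FPKM. The least abundant of the tested genes was EIF5AL1, a paralogue of EIF5A, at 1.45 FPKM. The cap-binding protein gene EIF4E had a mean of 1.96 FPKM, whereas its partners EIF4A1 and EIF4G1 lay at 183.9 and 50.7 FPKM. The other leading genes of their factors were EIF2S3 at 65.2 FPKM for EIF2, EIF2AK1 at 26.5 FPKM for the EIF2 kinases, EIF2B2 at 16.8 FPKM for EIF2B and EIF5A at 39.1 FPKM for EIF5.

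**Figure D2:**
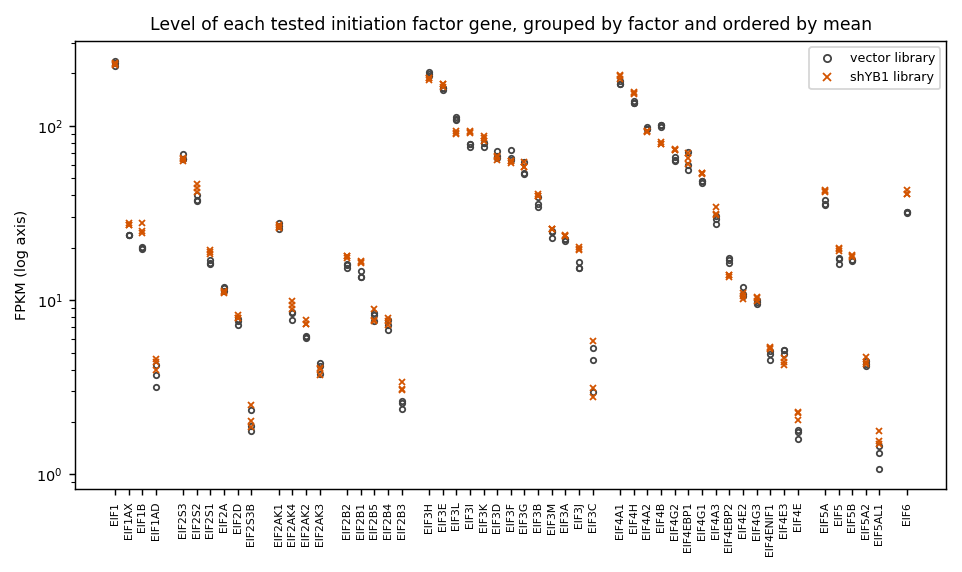
FPKM on a log axis (y) of each tested initiation factor gene (x), grouped by factor and ordered by mean level, with each of the 3 vector libraries as an open circle and each of the 3 shYB1 libraries as a cross. Levels run from a mean of 1.45 FPKM for EIF5AL1 to 227.6 FPKM for EIF1, and the distance between circles and crosses is small beside the distance between genes.

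Of the 4 genes that did not reach the level for testing, EIF3CL, a near copy of EIF3C, ranged from 0.139 to 0.302 FPKM. EIF4E1B, an EIF4E paralogue, was listed at 0 in all 6 libraries. EIF4EBP3, an EIF4E inhibitor, was at or near 0 in the vector libraries and in shYB1 replicate 1 and at 0.261 and 0.289 FPKM in the other shYB1 libraries. The values of the last gene are not given here.

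The sequence around the annotated transcript start is shown for 4 genes called lower after rescaling, EIF4B, EIF3F, EIF3D and EIF4A2, which were picked because they share a feature there, and for EIF6 and EIF1B, which rose. mRNAs that begin with a C followed by an unbroken run of pyrimidines (a terminal oligopyrimidine start) are known to encode ribosomal proteins and parts of the translation machinery and to be translated under the control of mTOR. The windows below hold 15 bases before and 15 bases after the RefSeq start, 5′ to 3′, from GRCh38.p14, and capitals mark the pyrimidine run that opens the transcript at a C. The first 4 open with such a run, of 5, 10, 10 and 6 bases, whereas EIF6 and EIF1B, the genes with the largest increases, do not. Of the other 4 genes lower after rescaling, EIF4EBP2 and EIF4E3 open with no such run. EIF3L and EIF3H were missing from the RefSeq promoter set used here, so their starts were not seen. EIF3K opens with a run of 8 bases and was called higher as deposited.
EIF4B: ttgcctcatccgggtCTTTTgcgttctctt
EIF3F: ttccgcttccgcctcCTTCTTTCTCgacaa
EIF3D: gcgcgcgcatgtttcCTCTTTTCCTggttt
EIF4A2: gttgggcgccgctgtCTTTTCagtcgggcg
EIF6: ttacttggtaagctggtgtgaggggaacct
EIF1B: tcggccattttgtgcgagaagccgcagcgc
The windows lie at chr12:53006441-53006470 (plus strand) for EIF4B, chr11:7987322-7987351 (plus) for EIF3F, chr22:36529152-36529181 (minus) for EIF3D, chr3:186783562-186783591 (plus) for EIF4A2, chr20:35284703-35284732 (minus) for EIF6 and chr3:40309692-40309721 (plus) for EIF1B.

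Of the EIF1 genes, EIF1B and EIF1AX rose and the most abundant member, EIF1, did not pass. EIF1B, a close paralogue of EIF1, lay at 19.9, 19.7 and 20.2 FPKM in vector and at 25.0, 27.6 and 24.4 FPKM in shYB1. All shYB1 values were above all vector values, and the log2 fold change was 0.36 ± 0.05 (SE, limma adjusted p = 0.00066). EIF1AX, the X-linked gene of EIF1A, which binds beside EIF1 on the small subunit, had vector values of 23.7, 23.8 and 23.6 FPKM and shYB1 values of 27.6, 27.0 and 26.9 FPKM. The spread within each group was far smaller than the gap between them, and the log2 fold change was 0.20 ± 0.04 (SE, limma adjusted p = 0.0031). EIF1 itself ranged from 219.4 to 235.4 FPKM in vector and from 224.8 to 230.0 FPKM in shYB1, which overlap, with a log2 fold change of -0.0017 and a 95% confidence interval of -0.08 to 0.07. EIF1AD, named for its EIF1A-like domain, had a log2 fold change of 0.22 with overlapping groups and did not pass (limma adjusted p = 0.14).

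In EIF2, the complex that delivers the initiator tRNA, the alpha and beta subunit genes rose and the gamma subunit gene did not pass. EIF2S1, the alpha subunit that the EIF2 kinases phosphorylate, lay at 16.2, 16.4 and 17.0 FPKM in vector and at 18.5, 19.4 and 18.8 FPKM in shYB1. EIF2S2, the beta subunit, lay at 37.6, 36.9 and 40.2 FPKM in vector and at 41.5, 44.0 and 46.3 FPKM in shYB1. The 2 log2 fold changes were close, 0.19 ± 0.04 for EIF2S1 (SE, limma adjusted p = 0.0073) and 0.20 ± 0.05 for EIF2S2 (limma adjusted p = 0.013). EIF2S3, the GTP-binding gamma subunit, was the most abundant of the 3 and ranged from 64.2 to 68.9 FPKM in vector and from 63.2 to 65.4 FPKM in shYB1. Its groups overlapped, and its log2 fold change was -0.03 with a 95% confidence interval of -0.11 to 0.05. The other 3 EIF2 genes, the alternative initiator tRNA carriers EIF2A and EIF2D and the EIF2S3 copy EIF2S3B, had log2 fold changes of -0.06, 0.08 and 0.08 and did not pass. Of the 50-base words of the EIF2S3B transcripts, 26.8% also occur in EIF2S3, and 22.6% of those of EIF2S2 occur in other genes, so reads may have been divided among them.

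EIF2B, the exchange factor of EIF2, has 5 subunits, of which 3 rose, beside 18.7% of all genes tested. EIF2B1, the alpha subunit, lay at 13.6, 13.6 and 14.7 FPKM in vector and at 16.5, 16.3 and 16.9 FPKM in shYB1, a log2 fold change of 0.25 ± 0.05 (SE, limma adjusted p = 0.0037). EIF2B2, the beta subunit, lay at 16.2, 15.3 and 15.9 FPKM in vector and at 18.0, 17.5 and 17.8 FPKM in shYB1, a log2 fold change of 0.17 ± 0.04 (limma adjusted p = 0.014). EIF2B3, the gamma subunit, lay at 2.56, 2.63 and 2.39 FPKM in vector and at 3.04, 3.38 and 3.08 FPKM in shYB1, a log2 fold change of 0.31 ± 0.08 (limma adjusted p = 0.014). In these 3 genes every shYB1 library was above every vector library. The groups overlapped for EIF2B4, the delta subunit, and for EIF2B5, the epsilon subunit that holds the catalytic domain, whose log2 fold changes were 0.06 and -0.0089 (95% confidence interval of EIF2B5 -0.16 to 0.15). EIF2B2 lost its call without shYB1 replicate 1 (limma adjusted p = 0.050) and after median-of-ratios rescaling (0.078), and EIF2B3 lost it without shYB1 replicate 2 (0.061).

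Of the 4 EIF2 kinases, 2 rose, beside 18.7% of all genes tested. EIF2AK2 encodes PKR, which is activated by double-stranded RNA, and lay at 6.13, 6.19 and 6.06 FPKM in vector and at 7.73, 7.26 and 7.27 FPKM in shYB1. The groups were apart, with a log2 fold change of 0.27 ± 0.05 (SE, limma adjusted p = 0.0044). EIF2AK4 encodes GCN2, which responds to amino acid shortage, and lay at 7.74, 8.55 and 8.43 FPKM in vector and at 9.95, 9.41 and 8.96 FPKM in shYB1, a log2 fold change of 0.19 ± 0.06 (limma adjusted p = 0.036). Its call was lost without vector replicate 1 (0.12), shYB1 replicate 1 (0.12) or shYB1 replicate 2 (0.087) and after median-of-ratios rescaling (limma adjusted p = 0.10). EIF2AK1, the haem-regulated kinase HRI, ranged from 25.6 to 27.6 FPKM in vector and from 26.1 to 27.0 FPKM in shYB1, so the most abundant kinase overlapped between the groups. EIF2AK3, the endoplasmic reticulum kinase PERK, also overlapped, with a log2 fold change of -0.06 (95% confidence interval -0.23 to 0.11).

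EIF3, the largest factor, scaffolds the small subunit complex. Of its 13 tested genes, 4 rose, 1 fell and 8 did not pass, beside 18.7% higher and 6.93% lower over all genes tested. The single lower call was near that share as deposited. After median-of-ratios rescaling 2 of the 13 rose and 4 fell, beside 11.4% and 12% of all genes tested. The log2 fold changes of the EIF3 genes ran from -0.27 to 0.33, with a median of 0.08. EIF3J, a loosely bound subunit that acts in the mRNA entry channel, had the largest increase, from 15.3, 16.6 and 15.4 FPKM in vector to 19.8, 20.2 and 19.5 FPKM in shYB1 (log2 fold change 0.33 ± 0.05, SE, limma adjusted p = 0.00074). EIF3I, a WD-repeat subunit, lay at 75.4, 78.2 and 79.2 FPKM in vector and at 91.3, 92.1 and 93.4 FPKM in shYB1 (log2 fold change 0.25 ± 0.03, limma adjusted p = 0.00048). In both genes the groups were well apart. EIF3L fell, from 107.5, 109.6 and 112.5 FPKM in vector to 90.6, 93.2 and 90.2 FPKM in shYB1. Its mean FPKM fell by 16.8%, with a log2 fold change of -0.27 ± 0.03 (SE, limma adjusted p = 0.00032), although 36.0% of the 50-base words of its transcripts also occur in other annotated genes.

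EIF3K, the subunit known to sit beside EIF3L at the edge of the complex, went the other way. It lay at 75.4, 79.9 and 79.9 FPKM in vector and at 82.1, 85.5 and 87.5 FPKM in shYB1 (log2 fold change 0.12 ± 0.04, SE, limma adjusted p = 0.044). EIF3B, which binds EIF3I and EIF3G, lay at 35.5, 34.4 and 39.0 FPKM in vector and at 39.4, 39.7 and 40.9 FPKM in shYB1 (log2 fold change 0.14 ± 0.05, limma adjusted p = 0.050, just under the threshold). Both calls were fragile and both were lost after median-of-ratios rescaling (limma adjusted p = 0.20 for EIF3K and 0.18 for EIF3B). The EIF3K call was lost without vector replicate 1 (0.15) or 2 (0.061) or shYB1 replicate 2 (0.12) or 3 (0.13), and the EIF3B call without vector replicate 1 (0.14) or 2 (0.16) or shYB1 replicate 1 (0.088), 2 (0.099) or 3 (0.13).

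Among the EIF3 genes that did not pass, EIF3H and EIF3F had all shYB1 libraries below all vector libraries. EIF3H, one of the 2 EIF3 subunits with an MPN domain, lay at 198.7, 194.3 and 203.1 FPKM in vector and at 183.9, 188.3 and 188.0 FPKM in shYB1, with a log2 fold change of -0.09 (limma adjusted p = 0.056). EIF3F, the other MPN subunit, lay at 65.8, 63.6 and 72.9 FPKM in vector and at 61.4, 62.8 and 62.7 FPKM in shYB1, with a log2 fold change of -0.11 (limma adjusted p = 0.11). Vector replicate 3 was the highest library of EIF3F and set most of the spread of its group. After median-of-ratios rescaling EIF3H, EIF3F and the cap-contacting subunit EIF3D were called lower, with log2 fold changes of -0.14, -0.17 and -0.11 (limma adjusted p = 0.0050, 0.022 and 0.044). EIF3A, the core scaffold subunit, EIF3E and EIF3M had all shYB1 libraries above vector with log2 fold changes of 0.08, 0.07 and 0.09, and EIF3G overlapped between the groups at 0.09. EIF3C, a core subunit, ranged from 2.77 to 5.85 FPKM over the 6 libraries, far below the other core subunits, and 45.4% of the 50-base words of its transcripts are shared with other genes, mainly its copy EIF3CL, so its level and its log2 fold change of -0.16 ± 0.35 (SE) are uncertain.

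EIF4, the cap-binding and unwinding factor, held 3 of the 4 genes that fell. Of the 14 tested genes 5 rose, 3 fell and 6 did not pass, beside 18.7% higher and 6.93% lower over all genes tested. EIF4B, which stimulates the helicase activity of EIF4A, lay at 98.0, 100.7 and 101.3 FPKM in vector and at 78.8, 81.1 and 78.6 FPKM in shYB1. Its mean FPKM fell by 20.5%, more than that of any other tested initiation factor, with a log2 fold change of -0.33 ± 0.03 (SE, limma adjusted p = 7.9e-05). EIF4H, the other RNA-binding cofactor of EIF4A, rose from 135.5, 135.6 and 138.5 FPKM in vector to 152.3, 156.6 and 154.7 FPKM in shYB1 (log2 fold change 0.18 ± 0.03, limma adjusted p = 0.0020). The cofactors of the same helicase moved in opposite directions. Of the 50-base words of their transcripts, 19.4% for EIF4B and 12.5% for EIF4H occur in other genes, mainly pseudogenes.

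Of the helicase genes, EIF4A1 rose and EIF4A2 and EIF4A3 did not pass. EIF4A1 lay at 173.5, 173.5 and 181.2 FPKM in vector and at 184.7, 193.4 and 197.0 FPKM in shYB1, a log2 fold change of 0.12 ± 0.04 (SE, limma adjusted p = 0.028). That call was lost after median-of-ratios rescaling (0.15), without vector replicate 1 (0.091) or 2 (0.081) and without shYB1 replicate 2 (0.094) or 3 (limma adjusted p = 0.097), and 41.0% of the 50-base words of its transcripts are shared with other genes. EIF4A2, its close paralogue, lay at 96.3, 98.5 and 95.4 FPKM in vector and at 92.6, 93.2 and 93.5 FPKM in shYB1, below vector in every library but not past the threshold (log2 fold change -0.05, limma adjusted p = 0.20). EIF4A3, the helicase of the exon junction complex, lay at 29.2, 30.3 and 27.3 FPKM in vector and at 30.9, 34.2 and 31.3 FPKM in shYB1 (log2 fold change 0.15, limma adjusted p = 0.057), and passed without vector replicate 2 (0.046). Within a library the ratio of EIF4A2 to EIF4A1 was 0.555, 0.568 and 0.527 in vector and 0.501, 0.482 and 0.475 in shYB1. Such a ratio of FPKM does not depend on how libraries are scaled. The log2 differences of ratios, here and below, were taken after adding 0.1 to each FPKM. For EIF4A2 to EIF4A1 the log2 difference was -0.18, with the groups apart.

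Of the scaffold genes, EIF4G1 and EIF4G2 rose and EIF4G3 did not pass. EIF4G1, which links the cap-binding protein to EIF4A and EIF3, lay at 46.7, 48.2 and 48.3 FPKM in vector and at 53.0, 54.0 and 53.8 FPKM in shYB1 (log2 fold change 0.17 ± 0.03, SE, limma adjusted p = 0.0046). EIF4G2, a relative that lacks the EIF4E-binding part and works without the cap-binding protein, lay at 63.4, 63.0 and 66.2 FPKM in vector and at 73.0, 73.6 and 72.4 FPKM in shYB1 (log2 fold change 0.19 ± 0.03, limma adjusted p = 0.0028). EIF4G3 ranged from 9.53 to 10.1 FPKM in vector and from 9.84 to 10.4 FPKM in shYB1, which overlap. Within a library, the ratio of EIF4G2 to EIF4G1 overlapped between the groups (log2 difference 0.02, exact permutation p = 0.6), and the ratio of EIF4G3 to EIF4G1 was lower in every shYB1 library (log2 difference -0.11).

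Of the cap-binding proteins and their inhibitors, EIF4E rose and EIF4E3 and EIF4EBP2 fell. EIF4E, which binds the cap, lay at 1.61, 1.81 and 1.76 FPKM in vector and at 2.05, 2.27 and 2.24 FPKM in shYB1, a low level with a log2 fold change of 0.33 ± 0.09 (SE, limma adjusted p = 0.020). The EIF4E call was lost without vector replicate 1 (0.070), shYB1 replicate 2 (0.072) or shYB1 replicate 3 (limma adjusted p = 0.058). EIF4EBP2, a translation inhibitor that binds EIF4E when mTOR is inactive, lay at 16.3, 17.5 and 17.1 FPKM in vector and at 13.9, 13.9 and 13.6 FPKM in shYB1. All shYB1 libraries were below vector, and mean FPKM fell by 18.4% (log2 fold change -0.29 ± 0.04, SE, limma adjusted p = 0.0012). EIF4EBP1, the related inhibitor and the more abundant of the pair, ranged from 56.0 to 70.4 FPKM in vector and from 60.5 to 70.2 FPKM in shYB1 (log2 fold change 0.08, 95% confidence interval -0.11 to 0.27), with overlapping groups.

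EIF4E3, an atypical EIF4E paralogue, lay at 4.92, 5.21 and 5.17 FPKM in vector and at 4.64, 4.22 and 4.42 FPKM in shYB1 (log2 fold change -0.20 ± 0.06, SE, limma adjusted p = 0.037). Its call was lost without vector replicate 1, 2 or 3 (limma adjusted p = 0.054, 0.095 and 0.083) and without shYB1 replicate 2 (0.13) or 3 (0.080). EIF4E2, which binds the cap without recruiting EIF4G and represses translation, overlapped between the groups at a log2 fold change of -0.07, and EIF4ENIF1, the shuttling and mRNA-decay partner of EIF4E, had all shYB1 libraries above vector at 0.12 without passing. The ratio of EIF4E2 to EIF4E within a library was 6.61, 5.98 and 6.75 in vector and 4.95, 4.81 and 4.73 in shYB1, with the groups apart. The log2 difference was -0.40, and -0.29 with a pseudocount of 1. The ratios of EIF4EBP1 to EIF4E and of EIF4EBP2 to EIF4EBP1 were also lower in every shYB1 library, with log2 differences of -0.25 and -0.37, the first being -0.15 with a pseudocount of 1.

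**Figure D3:**
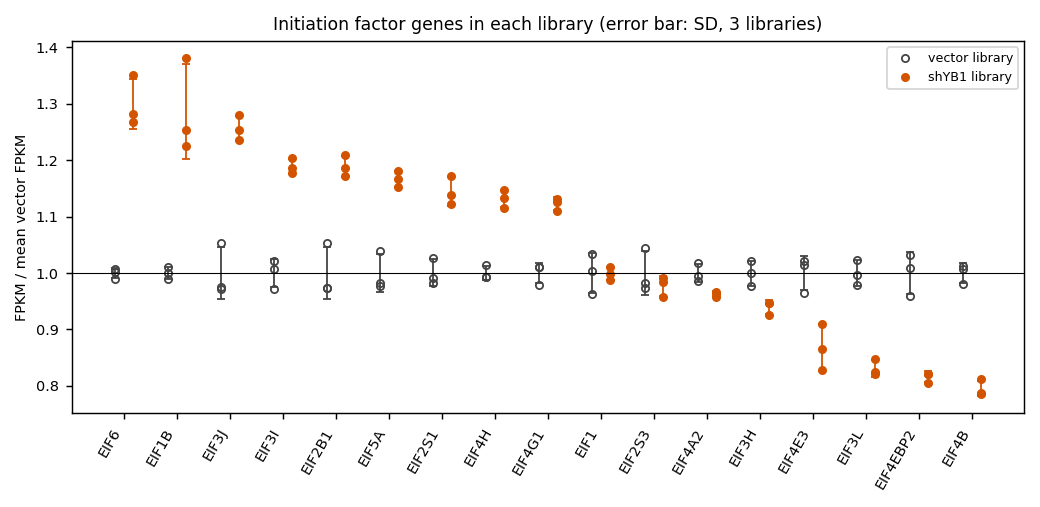
FPKM of each library divided by the mean of the 3 vector libraries (y axis) for 17 initiation factor genes (x axis), open circles for vector and filled circles for shYB1, with bars for the SD. The shYB1 circles of EIF6, EIF1B and EIF3J lie above all vector circles, those of EIF4B, EIF4EBP2 and EIF3L below them, and those of EIF1 and EIF2S3 among them.

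Of the late-acting factors, EIF5, EIF5A and EIF6 rose. EIF5, which activates the GTPase of EIF2, lay at 17.3, 17.5 and 16.1 FPKM in vector and at 19.3, 20.1 and 19.6 FPKM in shYB1 (log2 fold change 0.21 ± 0.04, SE, limma adjusted p = 0.0073). EIF5A, the hypusine-bearing factor that acts mainly in elongation, lay at 35.3, 35.5 and 37.5 FPKM in vector and at 42.7, 41.6 and 42.1 FPKM in shYB1 (log2 fold change 0.22 ± 0.04, limma adjusted p = 0.0020). In both genes the groups were apart, and the EIF5 call was lost after quantile normalization (limma adjusted p = 0.055). Of the 50-base words of the EIF5A transcripts, 15.3% occur in other genes, mainly EIF5AL1. EIF5B, the GTPase of subunit joining, had all shYB1 libraries above vector at a smaller log2 fold change of 0.09 (limma adjusted p = 0.095). The EIF5A paralogues EIF5A2 and EIF5AL1 did not pass, with log2 fold changes of 0.05 and 0.31, the second at only 1.45 FPKM and with 15.4% of its 50-base words shared with other genes, mainly EIF5A.

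EIF6, which keeps the large ribosomal subunit from joining too early and also acts in its maturation, had the largest log2 fold change of the 52 tested genes. It lay at 31.6, 32.0 and 32.1 FPKM in vector and at 43.1, 40.4 and 40.9 FPKM in shYB1, a log2 fold change of 0.38 ± 0.04 (SE, limma adjusted p = 9.2e-05). The lowest shYB1 library was well above the highest vector library, and median-of-ratios rescaling left a log2 fold change of 0.32. EIF6 lies at chr20:35278911-35284985 (minus strand) and EIF4B, at the other end of the range, at chr12:53006158-53042209 (plus strand) in the GENCODE annotation of GRCh38.

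Within-library ratios were compared for 10 pairs of initiation factor genes with a two-sided exact permutation test, in which 3 libraries against 3 cannot give a p below 0.1. In 7 of the 10 pairs the groups were apart and p was 0.1 (0.14 after Benjamini-Hochberg adjustment over the 10), so none could pass the threshold. How often other pairs of genes were apart was not counted, so the 7 only describe the pairs chosen. Beside those given above, the ratio of EIF5A2 to EIF5A was lower in shYB1 by a log2 difference of -0.17, and that of EIF5 to EIF1, whose products act against each other at the start codon, was higher by 0.21. The ratio of EIF2B5 to EIF2S1 was 0.468, 0.501 and 0.499 in vector and 0.413, 0.394 and 0.471 in shYB1, which overlapped through shYB1 replicate 3 (exact permutation p = 0.2, 0.25 after adjustment). The ratio of EIF4A3 to EIF4A1 overlapped too (log2 difference 0.03, exact permutation p = 0.7).

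The genes that open with a C and at least 4 further pyrimidines were then set beside the rest. The feature was chosen after the values had been seen, so the counts are a description with no test. Of the 47 initiation factor genes with a RefSeq promoter entry, 10 had such a start (21.3%), beside 4.04% of 27305 promoters. The 10 were EIF2A, EIF2D, EIF2S3, EIF2S3B, EIF3D, EIF3F, EIF3K, EIF3M, EIF4A2 and EIF4B, all of them tested. Of these, 1 rose, 1 fell and 8 did not pass, with a median log2 fold change of -0.04, whereas of the 34 tested genes with another start 19 rose, 2 fell and 13 did not pass, with a median of 0.17. After median-of-ratios rescaling 0 of the 10 rose and 4 fell, beside 15 and 2 of the 34. Over all genes tested, 497 had such a start, of which 13.1% rose and 8.05% fell (6.64% and 15.1% after rescaling), with a median log2 fold change of 0.02 as deposited. Another start was found in 7885, of which 19.0% rose and 6.56% fell (11.5% and 11.4% after rescaling), with a median of 0.06, so the distance between the medians was smaller there. Ribosomal protein genes are the best known class with such starts. Of these, 9.30% of the 43 with the annotated start and 21.7% of the 23 without it fell (32.6% and 39.1% after rescaling). Over all genes tested 6.93% fell (12% after rescaling). The medians of the 43 and the 23 were -0.05 and -0.04. In this class the share that fell was larger without the annotated start, as deposited and after rescaling. Any part of the feature in the changes was not tested. The annotated start is a single position and need not be the one used in these cells. The promoter set used here lacked 8 tested genes.

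**Figure D4:**
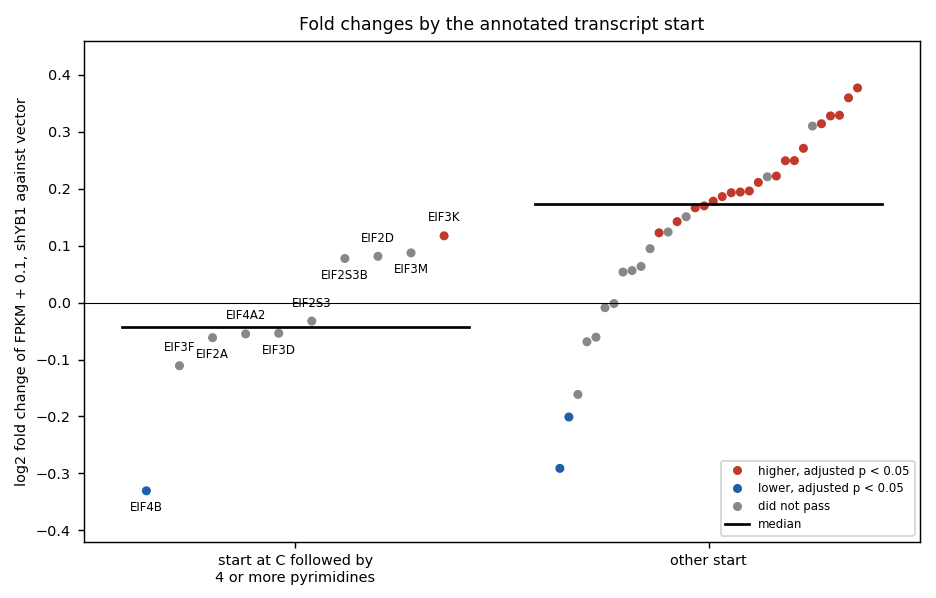
Log2 fold change of FPKM + 0.1 in shYB1 against vector (y axis) for the 44 tested initiation factor genes with a RefSeq promoter entry, split by whether the annotated transcript opens with a C and at least 4 pyrimidines (left, 10 genes, each named) or not (right, 34 genes). Bars are medians, -0.04 on the left and 0.17 on the right, and colours mark calls as higher (red), lower (blue) or neither (grey).

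The promoters, from 250 bases before to 50 after the start, were searched on both strands. The inverted CCAAT core ATTGG occurred in 18 of the 47 initiation factor promoters (38.3%), beside 35.7% of all 27305. The longer Y-box CTGATTGG, which contains that core, occurred in 3 (6.38%, beside 4.16%), those of EIF2AK3, EIF2B2 and EIF3F. Of these 3 genes, EIF2B2 rose and the other two did not pass. The amino acid response core TGATGCAA occurred in 0 of the 47, beside 0.923% of all promoters.

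Genes whose products work with the initiation factors were read from a separate list. Of its 33 tested genes (poly(A)-binding proteins, EIF4E and EIF4A regulators, EIF2 phosphatase, mTOR complex and recycling factors), 12 rose (36.4%, beside 18.7% of all genes tested) and 1 fell (3.03%, beside 6.93%). After median-of-ratios rescaling 8 rose (24.2%, beside 11.4%) and 4 fell (12.1%, beside 12%), and the calls of MTIF2, ZNF598, RPTOR and PPP1CA were lost (limma adjusted p = 0.051, 0.077, 0.14 and 0.11). DENR, which acts in recycling and reinitiation, had the largest increase, from 26.9, 25.2 and 24.9 FPKM in vector to 32.2, 32.2 and 34.1 FPKM in shYB1 (log2 fold change 0.36 ± 0.04, SE, limma adjusted p = 0.00034). It was followed by the mitochondrial initiation factor gene MTIF2 (0.28), the mTOR complex component AKT1S1 (0.26), the nuclear cap-binding subunit NCBP1 (0.25) and the EIF2 phosphatase subunit PPP1R15A (0.23). The others that rose were MTOR, NCBP2, GCN1, ZNF598, RPTOR, PAIP1 and PPP1CA, with log2 fold changes from 0.17 to 0.23.

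PABPC1, the main cytoplasmic poly(A)-binding protein and binding partner of EIF4G1, was the partner gene that fell. It lay at 767.1, 797.0 and 797.6 FPKM in vector and at 726.2, 734.4 and 725.4 FPKM in shYB1, and its mean FPKM fell by 7.43% (log2 fold change -0.11 ± 0.03, SE, limma adjusted p = 0.021). This call was lost without vector replicate 2 (0.062), shYB1 replicate 1 (0.072), 2 (0.066) or 3 (limma adjusted p = 0.068) and without a variance trend (0.091), and after quantile normalization the log2 fold change was -0.04 (limma adjusted p = 0.32). Single libraries also decided other partner calls: AKT1S1 was lost without vector replicate 1 (0.053) or shYB1 replicate 2 (0.061) or 3 (0.058), and MTIF2 without vector replicate 1 (0.066) or 3 (0.058) or shYB1 replicate 2 (limma adjusted p = 0.073). The calls of ZNF598, RPTOR and PPP1CA were each lost without at least 3 of the 6 libraries (limma adjusted p up to 0.074, 0.15 and 0.12).

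The tests above compare mRNA levels only. Fewer copies of an mRNA in each cell and fewer cells carrying it cannot be told apart in bulk RNA, and neither protein nor translation was measured in these libraries. Vector replicate 3 was the highest vector library in 33 of the 52 genes, a count that was not made over all genes. Without it 24 initiation factors rose (46.2%, beside 18.7% of all genes tested) and 3 fell (5.77%, beside 5.38%). The median log2 fold change was then 0.13, beside 0.06 over all genes. The part of vector replicate 3 in the other results was not tested beyond leaving it out.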

How the data were processed

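RNA from 786-O cells (3 vector and 3 shYB1 libraries) was sequenced by the authors, who deposited FPKM for 20030 genes in 1 table. The labels' processing notes name GRCh38 and Trimmomatic, HISAT2, Cufflinks, HTSeq and DESeq, without versions, so the authors' step that made the FPKM is not given in the sources used here. Annotation text in the table was not used, and 0 value columns were left unmapped. No counts were used here, so the depth is unknown and no interval for counting error was given.

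Initiation factor genes were those whose symbol starts with EIF. These genes and the partner list were chosen with earlier results of these data known. The deposited FPKM were put on a log2(FPKM + 0.1) scale, genes averaging under 1 FPKM were dropped (10439 kept), and groups were compared, two-sided, with limma 3.58.1 in R 4.3.3 (trend and robust), with Benjamini-Hochberg adjustment over all of them and a threshold of 0.05. A fold change is on this scale and understates changes of low genes, whereas percent changes are of mean FPKM. The genes named were YBX1, every called initiation factor, the most abundant of each factor, the members of 10 ratio pairs and every called partner, of 34 listed (33 tested). Further values of genes outside that rule were chosen after they were seen. The alternatives were other pseudocounts (1 and 0.01), no filter and a mean of at least 5 FPKM, 3 rescalings, no trend, a replicate block and each library left out. The fitting step was tested on simulated data. Same-numbered libraries did not deviate together (correlations from -0.169 to -0.00824), so the numbers were not taken as pairs.

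Promoters and transcript starts came from RefSeq (GRCh38.p14), and coordinates and shared 50-base words from the GENCODE annotation and transcripts of GRCh38. Other steps ran in Python 3.11.15 (pandas 2.3.3, NumPy 2.4.6; plots in matplotlib 3.10.9).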

Additional observations from a re-analysis of the deposited data

How the results depend on the processing

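Of the 25 called initiation factors, 16 had the same call in all 15 alternatives, less those that a stricter filter removed. When each library was left out, the count that rose ranged from 15 to 24. Those were 28.8% to 46.2% of the initiation factors, beside 12.7% to 18.7% of all genes tested. The count that fell ranged from 3 to 4 (5.77% to 7.69%), beside 4.95% to 5.83%. The median log2 fold change ranged from 0.078 to 0.134, beside 0.045 to 0.062 over all genes. Median-of-ratios rescaling gave 8 lower and a median of 0.036, beside 12% lower and a median of 0.00099 over all genes. Quantile normalization gave a median of 0.042, beside 0.0022. Partner genes called lower numbered 2 with a mean of at least 5 FPKM (7.41%, beside 9.53% of all genes) and 4 after median-of-ratios rescaling. They numbered 3 after quantile normalization (9.09%, beside 11.3%, PABPC1 not among them) and 0 without a variance trend (beside 5.84%). When each library was left out they numbered 0 to 1, and partners called higher 7 to 11 (21.2% to 33.3%). With a pseudocount of 1 the log2 ratio difference was -0.29 for EIF4E2 to EIF4E and -0.15 for EIF4EBP1 to EIF4E.

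The sign of 4 genes near 0 turned: EIF5A2 (-0.00044 after median-of-ratios rescaling, -0.011 after quantile normalization), and, with single libraries left out, EIF1 (-0.028 to 0.022), EIF2B5 (-0.080 to 0.028) and EIF2AK1 (-0.033 to 0.022). In each, the adjusted p from limma was above the threshold, and the cause was not tested. With a replicate block, 22 initiation factors rose (42.3%, beside 19.9% of all genes tested) and 4 fell (7.69%, beside 7.28%). In that setting 14 partners rose (42.4%) and 1 fell (3.03%). EIF3H (lower) and EIF4A3 (higher) were called in addition, and EIF4E3 (limma adjusted p = 0.055) was lost. The numbers share only a label: correlations between same-numbered libraries averaged -0.08. Without a filter on low values 17 of 54 initiation factors rose (31.5%, beside 9.89% of all genes) and 3 fell (5.56%, beside 3.85%). The largest SE among the tested initiation factors was that of EIF3C (0.35). Since the depth is unknown, counting error of low genes could not be given, and the scaling of the libraries, which sets the balance of higher and lower calls, could not be checked against counts.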
